A study of Mus musculus with 24 samples.

Results

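The interferon response genes described here are 9 genes, Gbp2, Gbp3, Ifit1, Ifit3, Irf7, Irf9, Isg15, Oasl2 and Bst2, taken with every probe that the platform annotation of an Illumina MouseWG-6 bead array assigns to them. These were 16 of the 45281 probes of the array. A probe was kept for testing where its detection p, the share of background control beads as bright as the probe, was under 0.05 on at least 6 arrays, and 8 of the 16 probes, of 5 genes, were kept, out of 21113 probes in all. The arrays measured RNA of the cerebellum and the frontal cortex of untreated SJL/JOrlCrl mice at 10 weeks of age. There were 6 female and 6 male animals, each giving both tissues, so that 24 arrays fell into 4 groups of 6: female cerebellum, male cerebellum, female frontal cortex and male frontal cortex. All groups shared the strain, the age and the naive state. The array labels also carry 1 of 2 tags whose meaning is not stated. They are called label set b (8 animals, 4 of each sex) and label set a (4 animals, 2 of each sex), and both tissues of an animal always carried the same tag.

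Interferons are secreted signals of antiviral defence. Type I interferons bind a receptor on the cell surface that activates the kinases Jak1 and Tyk2. A complex that holds Stat2 and Irf9 then binds interferon-stimulated response elements in the promoters of the responding genes, whereas interferon gamma acts mainly through gamma-activated sites. In brain, a low tonic level of the response is known in uninfected animals, and microglia, astrocytes, endothelial cells and neurons are all able to respond.

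Promoter windows of the 9 genes, from 250 bases before to 50 bases after each RefSeq start in build GRCm38.p6, were searched on both strands for the core of the interferon-stimulated response element, which is TTTC, any 2 bases and TTTC (GAAA, any 2 bases and GAAA on the other strand), and for the core of the gamma-activated site, which is TTC, any 3 bases and GAA. The genes had 11 windows, and 6 of these, of 6 genes, held the response element core, against 3.44% of 32851 promoter windows of the same length. The gamma-activated site core was present in 1 window, that of Bst2, against 8.3% of all windows. The windows of Irf7, Irf9 and Oasl2 held neither. The reference sequence is that of another mouse strain, and a match is a description of letters. The windows of 4 genes measured here and of Ifit1, which lies close to Ifit3 but was not detected, are shown because they hold the core; capitals mark the matches, and each window is read along its own gene.
Gbp2 promoter, chr3:142620413-142620712, plus strand: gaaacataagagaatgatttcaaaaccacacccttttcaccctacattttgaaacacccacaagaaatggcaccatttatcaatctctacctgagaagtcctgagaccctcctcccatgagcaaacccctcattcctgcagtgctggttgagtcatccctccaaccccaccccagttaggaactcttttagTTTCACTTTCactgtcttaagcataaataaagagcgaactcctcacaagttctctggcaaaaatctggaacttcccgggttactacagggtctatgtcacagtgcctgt
Gbp3 promoter, chr3:142559794-142560093, plus strand: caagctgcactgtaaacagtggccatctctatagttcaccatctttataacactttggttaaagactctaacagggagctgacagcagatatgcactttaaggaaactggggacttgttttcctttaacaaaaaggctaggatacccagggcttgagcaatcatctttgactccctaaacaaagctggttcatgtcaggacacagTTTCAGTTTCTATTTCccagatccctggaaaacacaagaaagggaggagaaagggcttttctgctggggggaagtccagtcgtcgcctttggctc
Ifit3 promoter, chr19:34583279-34583578, plus strand: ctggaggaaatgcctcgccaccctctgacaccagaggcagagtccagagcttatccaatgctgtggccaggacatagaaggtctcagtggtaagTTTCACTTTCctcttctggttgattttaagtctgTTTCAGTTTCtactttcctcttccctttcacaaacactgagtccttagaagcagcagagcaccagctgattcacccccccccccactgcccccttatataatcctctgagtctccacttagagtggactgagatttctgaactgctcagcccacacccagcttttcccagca
Isg15 promoter, chr4:156200769-156201068, minus strand: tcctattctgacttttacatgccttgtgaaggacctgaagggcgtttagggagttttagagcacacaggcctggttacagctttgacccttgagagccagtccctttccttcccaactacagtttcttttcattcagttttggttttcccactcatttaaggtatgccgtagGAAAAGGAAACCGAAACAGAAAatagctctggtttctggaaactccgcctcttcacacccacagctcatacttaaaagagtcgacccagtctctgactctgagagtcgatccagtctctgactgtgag
Ifit1 promoter, chr19:34640639-34640938, plus strand: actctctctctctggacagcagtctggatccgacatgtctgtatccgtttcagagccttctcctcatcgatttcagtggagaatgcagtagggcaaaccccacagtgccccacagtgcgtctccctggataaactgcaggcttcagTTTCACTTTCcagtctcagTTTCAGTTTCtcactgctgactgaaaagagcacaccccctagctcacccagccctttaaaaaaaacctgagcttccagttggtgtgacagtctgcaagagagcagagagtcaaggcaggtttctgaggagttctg
The response element core lay 59 bases before the start in Gbp2. Gbp3 and Isg15 held overlapping copies, 2 in Gbp3 and 3 in Isg15, and Ifit3 and Ifit1 held 2 separate copies each. Bst2 also held 2. Gbp2 and Gbp3 are neighbours on chromosome 3, with 2 other annotated genes between them, and Ifit1 and Ifit3 lie on chromosome 19 with 4 genes between them, among them Ifit3b, a close paralogue of Ifit3. Probe sequences were not used here, so cross-hybridisation between such copies was not tested.

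Of the antiviral effectors, Ifit1, whose product binds foreign RNA, was not well above background on any array: its probe was detected on 0 of 24 arrays, with a lowest detection p of 0.174. Bst2, which encodes tetherin, a membrane protein that holds budding virions, was detected on 2 of 24 arrays, 1 of male cerebellum and 1 of male frontal cortex. Oasl2, an oligoadenylate synthetase-like protein, had 3 probes, detected on 5, 2 and 0 of 24 arrays. Irf7, the factor that drives the interferon alpha genes, was detected on 0 of 24 arrays in either tissue. No fold change is given for these 4 genes. A probe that is not detected does not bound the RNA of its gene. For Gbp2, 2 probes were detected on 1 and 0 of 24 arrays, while another was detected on all 24.

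The 5 genes that could be measured were the guanylate-binding proteins Gbp2 and Gbp3, interferon-induced GTPases that act on intracellular pathogens; Ifit3, a partner of the RNA-binding Ifit proteins; Irf9, the DNA-binding subunit of the type I interferon complex; and Isg15, a ubiquitin-like protein that is joined to other proteins. Gbp2, Gbp3, Ifit3 and Irf9 were detected on all 24 arrays by their brightest probes, and Isg15 on 22. Gbp2 had 2 further probes, detected on 1 and 0 arrays, which were not kept. Gbp3, Ifit3 and Irf9 each had a dimmer kept probe, detected on 24, 24 and 23 arrays. Each gene is given by its brightest kept probe, and the dimmer probe is set beside it for the tissue difference and for the Gbp3 results. Levels are log2 intensities after background correction and quantile normalization, and they are compared between arrays for 1 probe at a time, never between probes. The median deposited intensity of an array ran between 69.3 and 75.2, and between 18099 and 19927 probes were detected per array. These measures do not cover every difference between arrays. Some differences followed the position of an array in the scanner table, as given below.

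**Figure D1:**
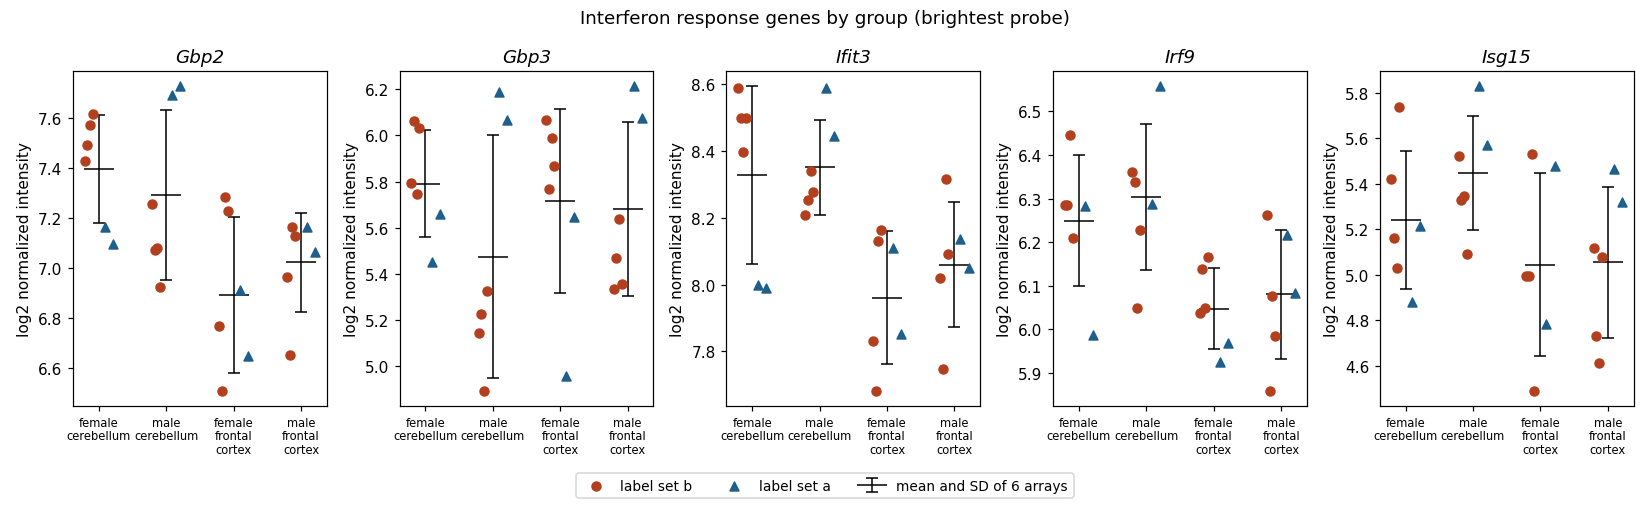
Log2 normalized intensity of the brightest kept probe of Gbp2, Gbp3, Ifit3, Irf9 and Isg15 on 24 arrays in 4 groups, with circles for label set b, triangles for label set a, and the mean and SD of the 6 arrays of a group. Gbp2, Ifit3, Irf9 and Isg15 averaged higher in both cerebellum groups than in both frontal cortex groups, and the label set a arrays of Gbp3 lay below those of label set b in females and above them in males.

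The first comparison asked which interferon response genes differ between cerebellum and frontal cortex. Of the 5 genes measured, 4 were higher in cerebellum and 0 were lower by limma at an adjusted p under 0.05, where 37.6% of 11439 named genes were higher, 32.9% were lower and 70.5% were called in either direction. The median log2 difference, cerebellum minus frontal cortex, was 0.29 over the 5 genes and 0.03 over all named genes.

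Ifit3 had the smallest adjusted p of the 5. Its log2 level in female cerebellum had a lowest value of 7.99, a median of 8.45 and a highest value of 8.59, against 7.68, 7.98 and 8.16 in female frontal cortex. In males the lowest, median and highest were 8.21, 8.31 and 8.59 in cerebellum, against 7.75, 8.07 and 8.32 in frontal cortex. The groups overlapped in both sexes, but the cerebellum exceeded the frontal cortex of the same animal in 11 of 12 animals. The log2 difference was 0.33 ± 0.08 (SE, 24 arrays; limma adjusted p = 0.00072), or 1.26-fold. The dimmer Ifit3 probe gave 0.30 (limma adjusted p = 0.0061).

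Gbp2 spanned 7.10 to 7.62 in female cerebellum with a median of 7.46, against 6.51 to 7.28 with a median of 6.84 in female frontal cortex. In male cerebellum it spanned 6.93 to 7.73 with a median of 7.17, against 6.65 to 7.17 with a median of 7.10 in male frontal cortex. The ranges overlapped in each sex, and cerebellum was higher in 10 of 12 animals. The log2 difference was 0.39 ± 0.10 (SE, 24 arrays; limma adjusted p = 0.0018), or 1.31-fold. Within the sexes it was 0.51 in females (adjusted p = 0.0045) and 0.27 in males (adjusted p = 0.12). The test of the difference between the sexes, given below, did not pass.

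Irf9 spanned 5.99 to 6.45 in female cerebellum with a median of 6.28, against 5.93 to 6.17 with a median of 6.04 in female frontal cortex. In male cerebellum the span was 6.05 to 6.56 with a median of 6.31, against 5.86 to 6.26 with a median of 6.08 in male frontal cortex. Cerebellum was higher in 11 of 12 animals although the ranges overlapped. The log2 difference was 0.21 ± 0.06 (SE, 24 arrays; limma adjusted p = 0.0032), or 1.16-fold, and the dimmer probe gave 0.40 (limma adjusted p = 0.00094). After scaling the arrays to a common median in place of quantile normalization the Irf9 difference was 0.14 (adjusted p = 0.061).

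Isg15 spanned 4.88 to 5.74 in female cerebellum with a median of 5.19, against 4.49 to 5.53 with a median of 4.99 in female frontal cortex. In male cerebellum it spanned 5.09 to 5.83 with a median of 5.43, against 4.61 to 5.47 with a median of 5.10 in male frontal cortex. Both arrays on which it was not detected were of frontal cortex, 1 of each sex, and cerebellum was higher in 10 of 12 animals. The log2 difference was 0.29 ± 0.12 (SE, 24 arrays; limma adjusted p = 0.035), or 1.23-fold. This call was the least stable: it was lost under median scaling (adjusted p = 0.059), cyclic loess (0.072) and no filter on dim probes (0.079). It was also lost without any 1 of 9 arrays, namely replicates 3 and 6 of female cerebellum, 1, 2 and 3 of male cerebellum, 1 and 6 of female frontal cortex and 4 and 5 of male frontal cortex, with adjusted p up to 0.074.

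Gbp3, although its gene neighbours Gbp2, did not pass. Its log2 difference between the tissues was -0.07 (95% interval -0.37 to 0.24; limma adjusted p = 0.71), and the dimmer probe gave 0.03 (95% interval -0.18 to 0.24; adjusted p = 0.83). Cerebellum was higher in 4 of 12 animals by the brightest probe and in 8 of 12 by the dimmer one.

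**Figure D2:**
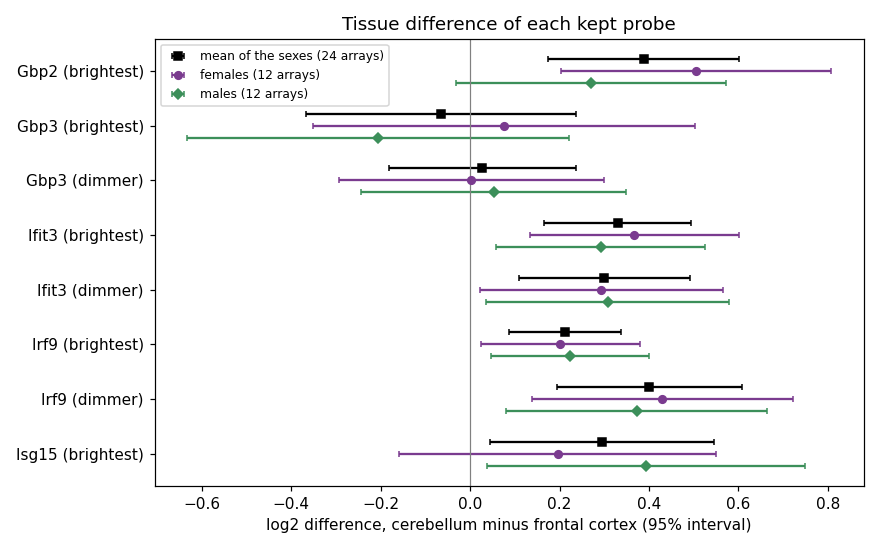
Log2 difference, cerebellum minus frontal cortex, of the 8 kept probes with 95% intervals from limma, for the mean of the sexes (squares), females (circles) and males (diamonds). The intervals for the mean of the sexes lie above 0 for Gbp2, Isg15 and both probes of Ifit3 and Irf9, and cross 0 for both probes of Gbp3.

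The tissue difference was also computed within each label set. In label set b alone, 4 of 5 genes were again higher in cerebellum, where 65.8% of named genes were called in either direction: Gbp2 by 0.34 (limma adjusted p = 0.0084), Ifit3 by 0.39 (0.000549), Irf9 by 0.20 (0.015) and Isg15 by 0.39 (0.017) on the log2 scale. In label set a alone, with 2 arrays per group, 52.2% of named genes were called. There 1 of 5 genes, Gbp2, passed (0.47, adjusted p = 0.0036). The differences of Ifit3 (0.22), Irf9 (0.23) and Isg15 (0.11) had the same sign without passing. The dimmer Irf9 probe passed in label set a (0.53, limma adjusted p = 0.0024). The dimmer probes of Ifit3 (0.14, adjusted p = 0.47) and Gbp3 (-0.16, adjusted p = 0.37) did not.

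Other genes of the pathway are given by lists. The lists were chosen with earlier results of these data known. Of 24 measured genes among other interferon-induced genes, 7 were higher in cerebellum, 10 lower and 7 not called, with a median log2 difference of -0.03. The share called, 70.8%, lay near the 70.5% of all named genes. The 5 called genes with the largest log2 differences were all lower in cerebellum: Cmpk2 (-0.998), Ifit2 of the family of Ifit3 (-0.75), Lgals3bp (-0.58), Samd9l (-0.46) and Ifi27 (-0.41). Of 13 receptor and signalling genes, 5 were higher in cerebellum and 7 lower. Stat2, the partner of Irf9 in the type I complex (0.80), and the transcription factor Irf3 (1.00) were higher. The kinase Jak1 (-0.91) and the transcription factors Irf1 (-0.76) and Irf2 (-0.59) were lower.

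Of 9 measured nucleic acid sensing genes, 2 were higher and 4 lower, where 37.6% of all named genes were higher and 32.9% lower. Samhd1 (0.57) and Mavs (0.28) were higher in cerebellum. The DNA sensor Cgas (-0.67), the RNA receptor Tlr7 (-0.54) and Sting1 (-0.39) were among the lower ones. Of 7 class I antigen presentation genes, 4 were higher, H2-D1 (0.84), Tap2 (0.76), H2-T23 (0.47) and Tapbp (0.37), and 2 were lower, led by the proteasome subunit Psmb10 (-1.27). Irgm1, an interferon gamma-induced GTPase, was higher by 0.55, and 2 other genes of its list, Igtp and Irgm2, had differences of 0.06 and -0.06. Only 2 of 8 interferon genes themselves were kept, Ifna1 and Ifnz, at levels close to background, with differences of 0.12 and 0.09 that did not pass.

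Both tissues are mixtures of cells, and fewer cells of a type cannot be told apart from less RNA per cell. All 10 measured microglia markers were lower in cerebellum, with a median log2 difference of -1.20. Their summed normalized intensity was 586 to 722 over the cerebellum arrays, against 1443 to 1815 over the frontal cortex arrays, and Itgam was not detected often enough to be kept. For these counts, 37.6% of all named genes were higher in cerebellum, 32.9% were lower and 70.5% were called in either direction. Endothelial markers went the other way in part: 5 of 10 were higher and 0 lower. Their summed intensities were 3737 to 4480 in cerebellum, against 3129 to 3949 in frontal cortex. Of 8 astrocyte markers, 5 were higher and 2 lower in cerebellum. Of 7 choroid plexus markers, 6 were higher and 0 lower, with summed intensities of 4275 to 17487 in cerebellum, against 2300 to 4134 in frontal cortex. All 5 measured red cell markers were higher in cerebellum, with sums of 9043 to 23779, against 4201 to 14424 in frontal cortex. Of 7 markers of meninges and fibroblasts 3 were higher and 0 lower, and of 2 measured markers of blood monocytes and granulocytes 1 was higher. The part of these cell types in the levels of the interferon response genes was not tested. Of the lymphocyte list, Cd3g, Cd4, Cd8a, Cd79b and Nkg7 were not kept.

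The second comparison asked whether females and males differ. In cerebellum 0 of 5 genes passed in limma (0.114% of named genes passed), in frontal cortex 0 of 5 (0.157%), and 0 of 5 had a sex difference that differed between the tissues (0.0787%). At an unadjusted p under 0.05 the count was also 0 of 5 in each of the 3 tests. Over both label sets Gbp3 averaged 5.79 ± 0.23 in female cerebellum and 5.47 ± 0.53 in male cerebellum (SD, n = 6 each), a log2 difference of 0.32 (95% interval -0.11 to 0.74; limma adjusted p = 0.95). In male cerebellum the label sets lay apart, as given below.

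Sex differences within the label sets had opposite signs for Gbp3 by its brightest probe. In label set b alone, with 4 animals of each sex, Gbp3 was higher in females than in males by 0.76 in cerebellum (limma adjusted p = 0.0012; 0.699% of named genes passed) and by 0.47 in frontal cortex (adjusted p = 0.049; 1.26% passed). The dimmer Gbp3 probe gave 0.56 (adjusted p = 0.023) in cerebellum and 0.42 (adjusted p = 0.099) in frontal cortex. In label set a alone, with 2 animals of each sex, the differences were -0.57 in cerebellum (adjusted p = 0.63; 0.035% passed) and -0.84 in frontal cortex (adjusted p = 0.34; 0% passed), against -0.45 (adjusted p = 0.63) and -0.000611 (adjusted p = 0.9996) by the dimmer probe. The other 4 genes did not pass in either label set.

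The third comparison set label set b against label set a. Averaged over the sexes, 0 of 5 genes passed in cerebellum (0.358% of named genes passed) and 0 of 5 in frontal cortex (0.717%), and 0 of 5 had a set difference that differed between the tissues (0.184%), by limma. At an unadjusted p under 0.05 there was 1 gene in cerebellum and 0 in the other 2 tests. In cerebellum these averages joined differences of opposite sign in the sexes for all 5 genes. In frontal cortex they did so for Gbp2, Gbp3 and Irf9, while Ifit3 (-0.03 in females, -0.05 in males) and Isg15 (-0.13 in females, -0.51 in males) had 1 sign in both. The test of the difference between the sexes was added after the values had been seen.

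Gbp3 is given array by array. In female cerebellum the 4 arrays of label set b had log2 levels of 5.80, 6.06, 5.75 and 6.03, against 5.45 and 5.66 in label set a. In male cerebellum label set b had 5.14, 5.23, 4.89 and 5.33, against 6.19 and 6.07 in label set a. The sets did not overlap in either sex, and their order was opposite: label set b was above label set a in females and below it in males. The same animals gave the same order in frontal cortex. There females had 6.07, 5.77, 5.99 and 5.87 in label set b, against 4.96 and 5.65 in label set a. Males had 5.34, 5.47, 5.64 and 5.36 in label set b, against 6.21 and 6.07 in label set a. In deposited intensities the male cerebellum arrays ran from 77.7 to 89.7 in label set b, against 110.2 and 124 in label set a. These label set b values lay near background, with detection p up to 0.020, where array medians ran between 69.3 and 75.2.

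The label sets were not spread evenly over the scanner table, whose 24 arrays stand in 4 runs of 6 neighbouring columns; what a run stands for is not stated. In male cerebellum both label set a arrays lay in runs 1 and 3 and all 4 label set b arrays in runs 2 and 4, so label set and run cannot be told apart within that group. The first principal component of all kept probes in cerebellum followed the same runs, with loadings of 0.10 to 0.59 in runs 1 and 3 and -0.43 to -0.15 in runs 2 and 4, and it correlated with Gbp3 at r = 0.69. The part of the run in the Gbp3 values was not tested within male cerebellum. In the other groups 4 pairs of arrays of both label sets shared a run, and the Gbp3 difference, label set b minus a, was 0.37 in female cerebellum, 0.91 and 0.12 in female frontal cortex and -0.60 in male frontal cortex. The dimmer probe gave 0.49, 0.03, -0.48 and -0.51 for the same pairs, so that 1 female frontal cortex pair had the other sign.

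Over all arrays of the males, the log2 difference of Gbp3, label set b minus a, was -0.98 in cerebellum (95% interval -1.31 to -0.66; limma adjusted p = 0.0041), where 0.769% of named genes passed, and -0.69 in frontal cortex (-1.02 to -0.37; adjusted p = 0.045), where 0.717% passed. In females it was 0.35 in cerebellum (adjusted p = 0.42), where 0.175% passed, and 0.62 in frontal cortex (adjusted p = 0.33), where 0% passed. The difference between the sexes, female minus male, was itself tested. It was 1.34 ± 0.22 in cerebellum (SE; limma adjusted p = 0.010), where 0.463% of named genes passed, and 1.31 ± 0.22 in frontal cortex (adjusted p = 0.025), where 0.0437% passed. Gbp3 was the 1 of 5 genes called in each tissue. With the runs of scanner columns as a block, a setting that borrows the run difference from the other groups, the difference between the sexes was 1.53 in cerebellum (adjusted p = 0.037) and 1.20 in frontal cortex, where the call was lost (adjusted p = 0.093). The male difference was then -1.10 in cerebellum (adjusted p = 0.046) and -0.62 in frontal cortex, where it no longer passed (adjusted p = 0.12). The dimmer Gbp3 probe gave 1.01 in cerebellum (adjusted p = 0.030) and 0.42 in frontal cortex (adjusted p = 0.62), where its values in female label set b, 5.28 to 5.76, lay between the 5.25 and 5.85 of label set a. In males alone the dimmer probe gave -0.48 in cerebellum (adjusted p = 0.10) and -0.46 in frontal cortex (adjusted p = 0.20), neither past the threshold. With the run as a block its cerebellum value was 1.21 (adjusted p = 0.054).

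With the 2 arrays of each animal averaged, so that the animal is the unit, the difference between the sexes was 1.32 ± 0.15 for Gbp3 (SE, 12 animals; limma adjusted p = 0.0034), and 0.0874% of named genes passed. Gbp3 ranked 2 among all 21113 kept probes by this test. In males alone label set b was lower by a log2 difference of -0.84 (adjusted p = 0.0028; 0.446% passed), and in females the difference was 0.49 (adjusted p = 0.092; 0.105% passed). The dimmer probe passed in none of these: its difference between the sexes was 0.71 (adjusted p = 0.083), its male difference -0.47 (adjusted p = 0.062) and its female difference 0.24 (adjusted p = 0.34). The label set a side rests on 2 animals of each sex. Without male replicate 1 the adjusted p of the difference between the sexes was 0.063, and that of the male difference 0.080; without male replicate 2 the male difference had an adjusted p of 0.062. Without female replicate 2 the female difference was 0.71 (adjusted p = 0.014). Each of these fits leaves 1 animal in label set a of that sex, which is taken to vary like the other groups. In cerebellum the call of the difference between the sexes was lost without male replicate 2 (adjusted p = 0.058) or female replicate 1 (0.076). In frontal cortex it was lost without any 1 of 6 arrays, female replicates 1 (difference 0.97, adjusted p = 0.21) and 5, and male replicates 1, 2, 3 and 6, with adjusted p between 0.055 and 0.27.

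**Figure D3:**
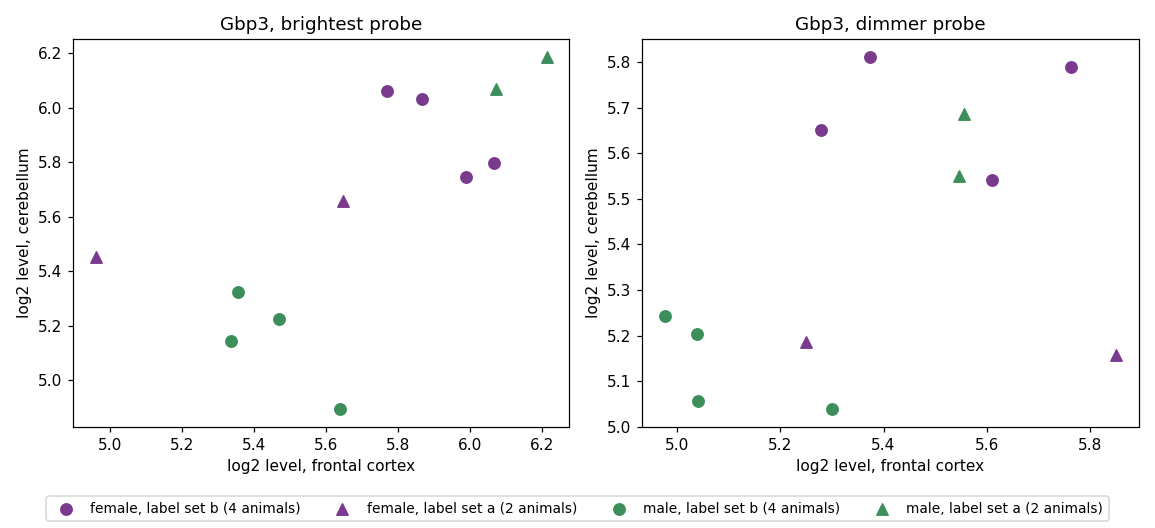
Log2 level of Gbp3 in cerebellum against frontal cortex of the same animal, 12 animals, for the brightest probe (left) and the dimmer probe (right), with colours for sex, circles for label set b and triangles for label set a. By the brightest probe the 4 male animals of label set b lie below 5.4 in cerebellum and the 2 male animals of label set a above 6.0, while females show the opposite order of the sets.

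The other 4 genes leaned the same way in cerebellum without passing. The difference between the sexes in the set difference was 1.03 for Gbp2 (limma adjusted p = 0.057), 0.75 for Ifit3 (0.077), 0.67 for Isg15 (0.27) and 0.35 for Irf9 (0.26). Gbp2 and Ifit3 sit just beside the threshold: both passed under 6 alternative settings, among them the authors' own values (Gbp2 0.79, adjusted p = 0.022; Ifit3 0.65, adjusted p = 0.038), while under median scaling neither they nor Gbp3 passed (Gbp3 1.12, adjusted p = 0.062). Gbp2 also passed without any 1 of 4 frontal cortex arrays, which leaves its cerebellum values as they are. These arrays were female replicates 4, 5 and 6 and male replicate 4 (adjusted p 0.022 to 0.045). With the runs of scanner columns as a block neither Gbp2 nor Ifit3 passed in cerebellum. Their differences between the sexes were then 0.64 (limma adjusted p = 0.34) and 0.44 (adjusted p = 0.46). For Gbp2, female cerebellum spanned 7.43 to 7.62 in label set b, against 7.10 and 7.16 in label set a, and male cerebellum 6.93 to 7.26 in label set b, against 7.69 and 7.73 in label set a. In frontal cortex the 2 sets of Gbp2 overlapped in both sexes, and the difference between the sexes was 0.31 for Gbp2 (adjusted p = 0.78) and 0.02 for Ifit3 (adjusted p = 0.99).

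Counting arrays only by order, every label set b array lay above every label set a array for 3 of 5 genes in female cerebellum (11.5% of kept probes) and for 2 of 5 in female frontal cortex (6.09%). Every label set b array lay below every label set a array for 4 of 5 genes in male cerebellum (18.1%) and for 2 of 5 in male frontal cortex (8.02%). By its brightest probe Gbp3 was the 1 of these 5 genes whose label sets lay apart in all 4 groups. Its dimmer probe overlapped in female frontal cortex. The share of all kept probes that lay apart in all 4 groups was not computed.

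**Figure D4:**
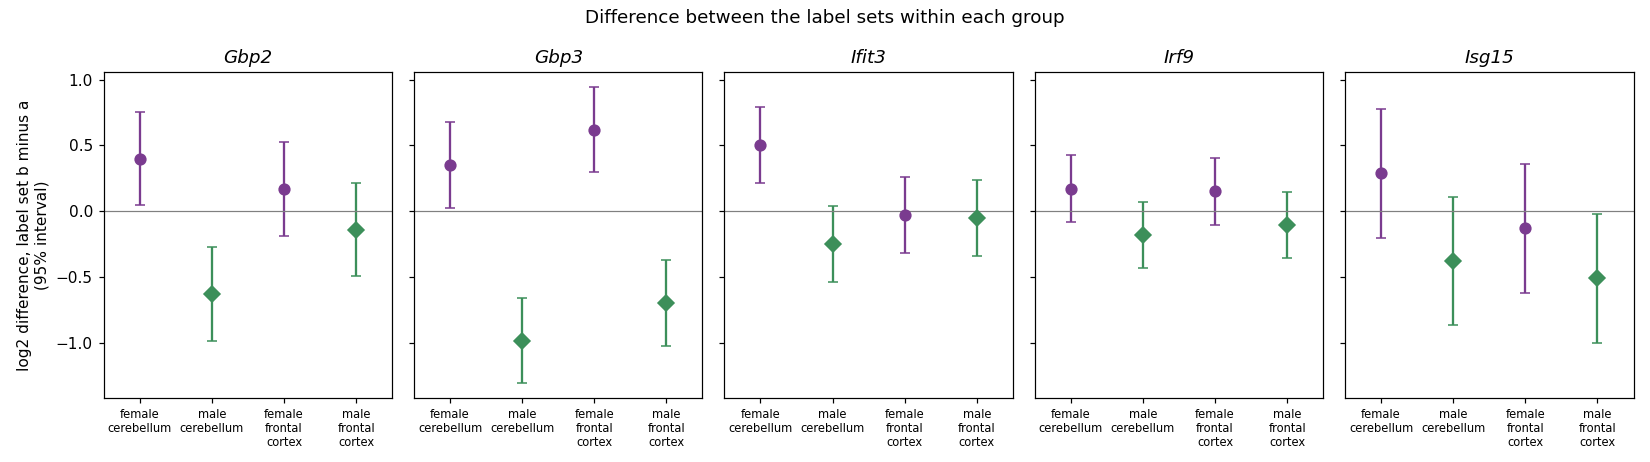
Log2 difference, label set b minus a, within each of the 4 groups for the 5 genes, with 95% intervals from limma, circles for females and diamonds for males. The Gbp3 intervals lie above 0 in both female groups and below 0 in both male groups, and in frontal cortex the Gbp2, Ifit3 and Irf9 intervals cross 0.

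Other genes differed between the label sets in the male animals alongside Gbp3, and these were picked after their values were seen. Lcn2, an acute-phase lipocalin that reactive astrocytes and endothelial cells make, ranked 1 in the difference between the sexes on animal means (-5.41 ± 0.58, SE; limma adjusted p = 0.0034). Averaged over both tissues it stood at log2 levels of 9.40, 9.58, 8.96 and 8.74 in the male animals of label set b, against 5.44 and 4.66 in those of label set a. In females it ran from 4.47 to 4.82 in label set b, against 6.90 and 4.83 in label set a. Among the males, the 4 animals with the lowest Gbp3 were those with the highest Lcn2. Both genes were at the top of the same test, so this match follows from how Lcn2 was picked. In the same 4 animals Plin4, a lipid droplet coat protein, was higher by 1.73 (adjusted p = 0.00090). Etnppl, an enzyme of astrocytes, was higher by 0.87 (adjusted p = 0.0025) and Ms4a6d by 0.81 (adjusted p = 0.0014). Gkn3 went the same way as Gbp3, with a male difference of -0.98 (adjusted p = 0.026). Not every leading gene is named here. Tsc22d3, a gene that glucocorticoids induce, stood at 9.90 to 10.32 in the male animals of label set b, against 9.17 and 9.36 in those of label set a. In females it ran from 9.28 to 9.73 in label set b, against 9.44 and 9.39 in label set a. No test is given for Tsc22d3. The part of these genes, or of what they report, in the Gbp3 values was not tested.

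Markers of cell types were set beside these values. In limma, 0 of 10 microglia, 0 of 10 endothelial and 0 of 8 astrocyte markers passed for the difference between the sexes on animal means, with median log2 values of 0.08, 0.05 and -0.04. Of the blood monocyte and granulocyte list, 2 genes were measured and 0 passed, with a median of -0.93, and Ccr2, S100a9, Ngp and Camp were not kept. Of 7 choroid plexus markers 0 passed, with a median of -0.51. Summed marker levels lay apart between the label sets for 5 of 14 lists in male cerebellum and 10 of 14 in male frontal cortex. In females they did so for 3 of 14 lists in cerebellum and 0 of 14 in frontal cortex. Beside these stand the shares of single kept probes with every label set b array above, or below, every label set a array. They were 15.1% and 18.1% in male cerebellum and 10.8% and 8.02% in male frontal cortex. In females they were 11.5% and 8.72% in cerebellum and 6.09% and 7.06% in frontal cortex. A sum over a list and a single probe are not the same measure. The microglia sum was 677 to 722 in label set b, against 586 to 601 in label set a, in male cerebellum, and 1714 to 1815 in label set b, against 1451 to 1508 in label set a, in male frontal cortex. In female cerebellum it was 632 to 690 in label set b, against 586 to 635 in label set a. The choroid plexus sum was 4275 to 6011 in label set b, against 8454 to 12428 in label set a, in male cerebellum, and 4336 to 10146 in label set b, against 15953 to 17487 in label set a, in female cerebellum. The sum of striatal neuron markers was 8573 to 11121 in label set b, against 4534 to 5193 in label set a, in male frontal cortex. There the endothelial sum, like Gbp3, was lower in label set b, 3129 to 3472, against 3576 to 3949 in label set a, as was that of cortical projection neurons, 19707 to 22148, against 22614 to 26753 in label set a. The oligodendrocyte sum was 26098 to 29275 in label set b, against 22803 to 23383 in label set a, and that of blood monocytes and granulocytes 181 to 336 in label set b, against 133 to 139 in label set a, both in male frontal cortex. The astrocyte sum was 38978 to 40605 in label set b, against 41055 to 41325 in label set a, in male cerebellum. In male frontal cortex it was 22473 to 26155, against 21021 to 22383. The oligodendrocyte sum in male cerebellum was 29247 to 32504 in label set b, against 33262 to 34706. That of granule cells there was 22900 to 23464, against 21590 to 22805. Not every list that lay apart is printed. The part of these cells in the Gbp3 values was not tested. Among the other interferon-induced genes 0 of 24 passed, with a median of 0.09, and the 5 interferon response genes had a median of 0.52 against 0.02 over all named genes. The signalling, sensing, ligand, class I and interferon gamma lists also had 0 genes called in this test.

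Covariation was described over the 12 animals within a tissue, after the mean of each sex had been subtracted. In cerebellum all 10 pairs of the 5 genes had a positive Pearson r, with a median of 0.61 and a range of 0.03 to 0.84. In frontal cortex 9 of 10 were positive, with a median of 0.24 and a range of -0.11 to 0.90. Over the 20 relations, 2 passed a permutation test of Pearson's r after Benjamini-Hochberg adjustment, Gbp2 with Gbp3 in cerebellum and Gbp2 with Ifit3 in frontal cortex. Whether a pair differed between the tissues was not tested. By Spearman's rho 4 passed: these 2, and in cerebellum Gbp2 with Ifit3 (rho = 0.73, permutation p = 0.0094, adjusted 0.047; r = 0.73, permutation p = 0.0075, adjusted 0.0503) and Gbp3 with Ifit3 (rho = 0.73, permutation p = 0.0090, adjusted 0.047).

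Gbp2 and Gbp3 in cerebellum had r = 0.84 (permutation p = 0.00070, adjusted 0.0070) and Spearman's rho = 0.76 (permutation p = 0.0064, adjusted 0.047). Without the 2 animals farthest from the median of Gbp2, r was 0.66. With the means of sex and label set removed r was -0.22, and within label set b alone it was -0.16 (8 animals, exact permutation p = 0.70). Label set a held 4 animals, too few for a value. Over all 10 cerebellum pairs the median r was -0.10 with the means of sex and label set removed. In male cerebellum label set and run of scanner columns cannot be told apart, so removing the label set means there also removes a run difference. Whether the shared rise and fall of the 5 genes belongs to the label sets or to the runs was not tested.

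Gbp2 and Ifit3 in frontal cortex had r = 0.90 (permutation p = 0.00011, adjusted 0.0022) and rho = 0.89 (permutation p = 0.00040, adjusted 0.0080). Without the 2 animals farthest from the median of Gbp2, r was 0.80. With the means of sex and label set removed r was 0.95. Within label set b alone r was 0.95 (8 animals, exact permutation p = 0.00082, adjusted 0.016) and rho 0.88 (exact permutation p = 0.0072, adjusted 0.14, which did not pass). The points of a pair come from the same arrays, and the permutations took no account of the runs of scanner columns. The 4 frontal cortex arrays of run 4 spanned 6.51 to 7.07 for Gbp2 and 7.68 to 8.05 for Ifit3, against 6.77 to 7.28 and 7.83 to 8.32 over the arrays of the other runs. With the means of sex and run removed, r was 0.88 for this pair and 0.81 for Gbp2 and Gbp3 in cerebellum, given with no test. Over all pairs the median r with the sex means alone removed was 0.61 in cerebellum and 0.24 in frontal cortex. With sex and run removed it was 0.60 and 0.53 (10 of 10 positive in each). The label set means were not removed in these values. With the means of sex and label set removed it was -0.10 (4 of 10 positive) and 0.02 (5 of 10 positive). In frontal cortex, sex and run removed gave 0.83 for Gbp2 with Gbp3, in place of 0.24 with the sex means alone removed. Likewise Ifit3 with Isg15 was 0.87 in place of -0.11, and Gbp3 with Ifit3 0.67 in place of 0.01. The first principal component of all kept probes in frontal cortex held 30.9% of the variance. Over the 12 animals it correlated with Gbp2 at r = 0.76 and with Ifit3 at r = 0.82. Its r was 0.20 with Irf9, -0.27 with Isg15 and -0.32 with Gbp3. In cerebellum the first component, 31.8% of the variance, correlated at 0.78 with Gbp2, 0.69 with Gbp3, 0.64 with Isg15, 0.52 with Ifit3 and 0.38 with Irf9. In frontal cortex its loadings were -0.47 to -0.28 in run 4 and 0.22 to 0.34 in runs 1 and 3. The part of the component and of the run in the pair relations was otherwise not tested.

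**Figure D5:**
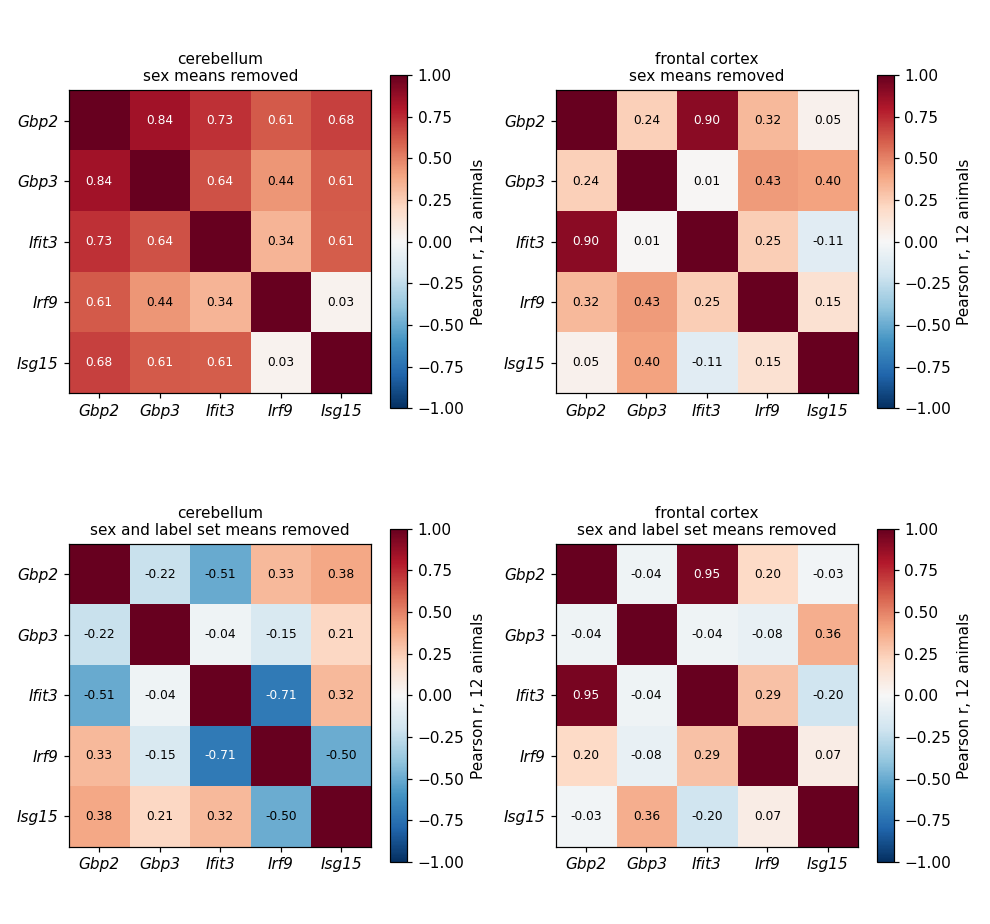
Pearson r between each pair of the 5 genes over 12 animals in cerebellum (left) and frontal cortex (right), with the mean of each sex removed (top) and with the means of sex and label set removed (bottom). The 10 positive cerebellum values at top left give way to values of both signs below, while Gbp2 with Ifit3 in frontal cortex is 0.90 above and 0.95 below.

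Whether an animal high in 1 tissue was high in the other was asked for each of the 5 genes. Only Gbp3 passed, with r = 0.73 (12 animals, permutation p = 0.0066, adjusted 0.033 over the 5 genes) and rho = 0.83 (permutation p = 0.0016, adjusted 0.0082), and r was 0.54 without the 2 farthest animals. The values for Gbp2, Irf9, Ifit3 and Isg15 were 0.35, 0.13, 0.000645 and -0.03. The Gbp3 relation was not positive in 2 other settings. Its r was -0.15 with the means of sex and label set removed and -0.85 in label set b alone (8 animals, exact permutation p = 0.010, adjusted 0.0501). The adjusted p of the pooled r passed 0.05 without female replicate 2 or 6 or male replicate 1, 2, 3, 4 or 6, and reached 0.20 without male replicate 1, where r was 0.63.

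The genes most like the summed pattern of the 5 genes, by Pearson r with the mean of their standardised levels after the group means were removed, are given as a description with no test. Over all 24 arrays they were Anxa5 (0.84), Gkn3 (0.84), Traf4 (0.83), Cthrc1 (0.82) and Fgfrl1 (0.82), and 9 of 11434 genes exceeded 0.8. Over the 12 cerebellum arrays they were Plscr1 (0.96), itself an interferon-induced gene, Ncbp1 (0.94), AI413582 (0.94), Kcnc4 (0.93) and Rad9a (0.92), where 1.78% of genes exceeded 0.8. Over the 12 frontal cortex arrays they were Sfrp1 (0.94), Chst3 (0.92), Gpr149 (0.90), Osgep (0.88) and Pcsk1n (0.88), where 0.289% exceeded 0.8.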

How the data were processed

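The deposited scanner table holds, per the file headers, for each probe and array an average bead intensity on a linear scale, a detection p-value, the standard error over beads (a signal in intensity units) and the number of beads. A second table holds values processed by the authors on the log2 scale, for which Partek is named in the submitters' processing notes; these were an alternative. RNA came from total RNA extracts, 100 ng of it amplified and labelled with biotin, per the labels' protocols.

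From these intensities, the neqc function of limma 3.58.1 (R 4.3.3; offset 16; negative controls inferred from the detection p-values) gave background-corrected, quantile-normalized log2 levels. Probes passing a detection p of 0.05 on 6 or more arrays were fitted together (lmFit and eBayes, 4 group means; 8 means of sex, tissue and label set for label set comparisons), two-sided, with Benjamini-Hochberg adjustment over all 21113 probes at 0.05; an adjusted p without a named tool is of these fits. A gene is given by its brightest kept probe. Probes were named from the platform annotation; 34885 probes had 1 symbol, 18 several and 10378 none. Correlations used 100000 permutations, or exact ones for 8 animals. The procedures were tested on simulated data.

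The members and lists were chosen with earlier results of these data known. Genes outside the members were named by the largest called difference in each list (up to 5) or by likeness. Igtp, Irgm2, Ifna1 and Ifnz, as the rest of 2 short lists, were chosen after their values were seen. So were Lcn2, Plin4, Etnppl, Tsc22d3, Ms4a6d and, for its label set difference, Gkn3. The label set by sex tests and the comparisons by run of scanner columns within groups were added after the values were seen. Both tissues came from the same animal by its label; the correlation of an animal's arrays around the group means ran from -0.30 to 0.24, and was over 0.1 in 5 of 12 animals. One scanner column misspells the sex and was matched by its number, tissue, animal and tag. The number of arrays limits the precision. RefSeq promoter windows are of build GRCm38.p6.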

Additional observations from a re-analysis of the deposited data

Results flagged for a closer look

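The difference between label set b and label set a of Gbp3 was not the same in females and males, by a test of that difference itself (female minus male, on the log2 scale). It was 1.34 in cerebellum, 1.31 in frontal cortex and 1.32 with the 2 arrays of each animal averaged, each past the limma threshold. The dimmer Gbp3 probe gave 1.01 in cerebellum, past the threshold, and 0.42 in frontal cortex (limma adjusted p = 0.62) and 0.71 with the arrays averaged (adjusted p = 0.083), neither past it. The label set a side of each value rests on 2 animals of each sex, and the meaning of the tags is not stated. The test was added after the values had been seen. In male cerebellum label set and run of scanner columns cannot be told apart. With the runs as a block the brightest probe gave 1.53 in cerebellum (limma adjusted p = 0.037). In frontal cortex it then gave 1.20, not past the threshold (adjusted p = 0.093). The cerebellum call was also lost under median scaling, and both tissue calls without some single arrays, as given above.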

How the results depend on the processing

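The tissue comparison called 4 of 5 genes; it called 2 under median scaling, 1 in label set a alone and 2 in male arrays alone, and 3 to 4 when each array was left out in turn. Median scaling moved the calls over all probes to 6109 higher and 7833 lower in cerebellum, against 7770 higher and 6545 lower under quantile normalization. The sex comparison called 1 gene, Gbp3, in cerebellum and 1 in frontal cortex in label set b alone, and the label set comparison called 1 in each tissue in male arrays alone. The label set by sex test in cerebellum called 3 genes under no background correction, maximum-likelihood normexp, the authors' values, trend and robust settings, array weights and cerebellum arrays alone, and 0 under median scaling, and 0 to 2 with single arrays left out. In frontal cortex it called 0 with no filter, with runs of 6 scanner columns as a block and with frontal cortex arrays alone. With single arrays or animals left out, that count, the animal-mean counts and the between-tissue count ran from 0 to 1, and the pair count from 2 to 3. Of the pair relations, 1 passed in place of 2 with the means of sex and label set removed and in label set b alone, where the r of Gbp2 and Gbp3 in cerebellum was -0.22 and -0.16. Between tissues 0 genes passed under median scaling, with the means of sex and label set removed and in label set b alone, and the Gbp3 r was -0.15 and -0.85 in the last 2. Apart from these settings' own construction (fewer arrays, more probes), the cause was not tested. With the animal as a replicate block the tissue comparison again called 4 genes, and the block changed no other count. The 4 correlations given above were the only values with a call in either setting that changed sign; of the rest, 150 of 3216 single-gene differences changed sign, as did 52 of 425 correlations with those 4 included. Of single-gene values and pairs, 20 lost and 18 gained a call under settings other than leaving out arrays. Values near background, those of Isg15 and the lower ones of Gbp3 among them, and 2 animals of each sex in label set a limit what could be detected.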
